A study of Mus musculus with 52 samples.

Results

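The mouse mitochondrial genome carries 37 genes, and their RNA was followed in 52 mammary tumours. The members are the genes whose symbol starts with mt-, which were 37 of the 47729 rows of the deposited tables: 13 protein-coding genes, 2 ribosomal RNAs and 22 transfer RNAs (tRNAs). Of these, 24 passed the filter on low counts and were tested, namely all 13 protein-coding genes, both ribosomal RNAs and 9 of the 22 tRNAs. The other 13 are all tRNAs.

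The tumours were grown in Balb/C mice from 4T1, a mouse mammary carcinoma cell line of the same strain, injected at 100000 cells into the 4th left mammary fat pad. Young mice were 8 to 10 weeks old by the sample labels (up to 12 weeks in the growth protocol), and aged mice were over 12 months old. Each mouse received 200 µg of an antibody in the abdomen on days 7, 10 and 13, either isotype control, anti-PD-L1 or anti-CTLA4. The 6 groups were young isotype (n = 7), young anti-PD-L1 (n = 10), young anti-CTLA4 (n = 12), aged isotype (n = 7), aged anti-PD-L1 (n = 8) and aged anti-CTLA4 (n = 8), each library being labelled as a biological replicate. All groups share the injected line. Whole tumours no larger than about 150 mm3 were sequenced, so fewer cells of a type and less RNA per cell cannot be told apart.

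Mitochondrial DNA is transcribed from both strands as long precursors, from which tRNAs lying between the other genes are cut out. The transcripts of the heavy strand give 12 of the mRNAs, both ribosomal RNAs and 14 tRNAs, and those of the light strand give mt-Nd6 and 8 tRNAs. The mRNAs encode core subunits of respiratory complexes I, III and IV and of the ATP synthase, which are assembled with many nuclear-encoded subunits. The libraries were made by poly(A) selection with a strand-marking kit and read as pairs of 75 bases, whereas most tRNAs are shorter than a read. Mature tRNAs and ribosomal RNAs have at most short A tails, and the levels below are therefore those of the RNA that this preparation captured.

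Depth ran from 9549847 to 53778370 counts per library. The labels number 3 sequencing batches, and the groups are not balanced over them. All 7 young isotype libraries are in batch 2, as are 9 of the 10 young anti-PD-L1 libraries, while all 8 aged anti-PD-L1 and 7 of the 8 aged anti-CTLA4 libraries are in batch 1. The young anti-CTLA4 group has 4, 3 and 5 libraries in batches 1, 2 and 3, and the aged isotype group has 3 in batch 1 and 4 in batch 3. Aged and young isotype libraries share no batch, nor do aged and young anti-PD-L1 libraries, and there age is separated from batch by the fit through the other groups alone. In 4 libraries the scaling (TMM) factor was under 0.8: replicates 1 and 6 of young isotype, replicate 8 of young anti-CTLA4 and replicate 3 of aged isotype. Results without them are given where they differ. Markers of the epithelial tumour cells were present, with 6 of 6 at a group mean of 1 CPM (counts scaled to a common library size by TMM) or more in each group and a summed level of 601 to 3470 CPM over the libraries.

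The genes that the results turn on are shown first, with sequences from GENCODE vM21 (build GRCm38), 5′ to 3′ on the strand of the RNA. The first 4 are neighbouring light-strand tRNA genes, for alanine (chrM:5018-5086), asparagine (chrM:5089-5159), cysteine (chrM:5192-5257) and tyrosine (chrM:5260-5326), all on the minus strand, with the anticodon in capitals.
mt-Ta: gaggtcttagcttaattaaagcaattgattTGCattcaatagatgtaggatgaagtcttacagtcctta
mt-Tn: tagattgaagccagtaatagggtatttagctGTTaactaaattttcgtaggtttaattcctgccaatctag
mt-Tc: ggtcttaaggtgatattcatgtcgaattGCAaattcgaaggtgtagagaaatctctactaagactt
mt-Ty: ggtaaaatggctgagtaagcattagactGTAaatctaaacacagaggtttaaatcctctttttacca

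The next is a serine tRNA gene, mt-Ts1 (chrM:6870-6938, minus strand), whose last 3 bases overlap the end of mt-Co1 on the opposite strand.
mt-Ts1: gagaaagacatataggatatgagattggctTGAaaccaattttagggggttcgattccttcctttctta

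The last is the shortest mRNA gene, mt-Atp8 (chrM:7766-7969, plus strand), with the 43 bases it shares with the start of mt-Atp6 in capitals.
mt-Atp8: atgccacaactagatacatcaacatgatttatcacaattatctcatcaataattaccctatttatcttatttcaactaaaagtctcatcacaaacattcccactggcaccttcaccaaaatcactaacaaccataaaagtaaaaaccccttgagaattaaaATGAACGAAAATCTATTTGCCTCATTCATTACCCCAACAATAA

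The 37 genes held 1.43 to 6.60% of a library's counts. By group, the share was 2.87 ± 1.12% (SD, n = 7) in young isotype, 3.57 ± 1.08% (n = 10) in young anti-PD-L1, 3.64 ± 1.53% (n = 12) in young anti-CTLA4, 3.75 ± 1.48% (n = 7) in aged isotype, 4.12 ± 1.17% (n = 8) in aged anti-PD-L1 and 4.46 ± 1.32% (n = 8) in aged anti-CTLA4. The ranges of all 6 groups overlap. The share also moved with batch: its mean was 3.96 ± 1.22% in batch 1 (n = 22), 2.99 ± 1.00% in batch 2 (n = 19) and 4.60 ± 1.44% in batch 3 (n = 11). Within the young anti-CTLA4 group, the only one with libraries in all 3, the mean was 3.06% in batch 1, 2.17% in batch 2 and 5.00% in batch 3. The part of batch in the order of the groups was not tested.

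**Figure D1:**
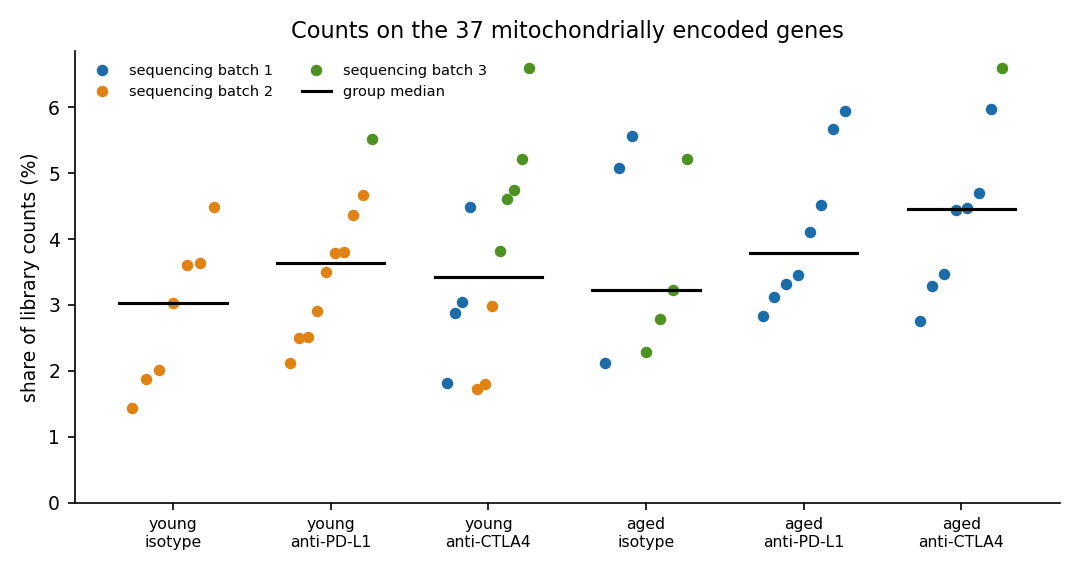
Share of each library's counts (%, vertical axis) on the 37 mitochondrially encoded genes, by group, with points coloured by sequencing batch and lines at group medians. The shares run from 1.43 to 6.60%, all groups overlap, and the batch 3 libraries of the young anti-CTLA4 group lie above most of their group.

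Nearly all of these counts fell on mRNAs. Over the 52 libraries, mt-Co1, the catalytic subunit of cytochrome c oxidase (complex IV), took 30.8 ± 4.32% (SD) of the members' counts. The other complex IV subunits followed, mt-Co3 with 17.3 ± 4.26% and mt-Co2 with 11.5 ± 1.22%. mt-Atp6, the subunit of the ATP synthase that forms its proton channel, took 10.5 ± 1.81%, and mt-Cytb, cytochrome b of complex III, took 9.07 ± 1.33%. The complex I subunits ranged from 5.33 ± 0.633% for mt-Nd1 to 0.631 ± 0.219% for mt-Nd4l. The ribosomal RNAs, mt-Rnr1 of the small and mt-Rnr2 of the large subunit, took 0.650 ± 0.262% and 0.911 ± 0.386%.

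Levels were also taken per length, in TPM (transcript abundance scaled to a fixed total per library). In TPM the complex IV and ATP synthase mRNAs were highest and the complex I mRNAs lowest. The median TPM per CPM was 13.7 for mt-Atp8 (204 bases), 1.86 for mt-Atp6 (681 bases) and 0.991 for mt-Cytb (1144 bases). These factors lie further apart than the lengths. The place of mt-Atp8 therefore rests on how TPM treats short genes, and those of mt-Nd3 and mt-Nd4l may do so too. The mean over the 52 libraries was 9576 ± 3613 TPM (SD) for mt-Co3, 7964 ± 3191 for mt-Co1, 7837 ± 3275 for mt-Co2, 7293 ± 3243 for mt-Atp6 and 6555 ± 4847 for mt-Atp8. Neighbours in that order changed places often, since mt-Co3 was above mt-Co1 in 37 of 52 libraries, mt-Co1 above mt-Co2 in 25, mt-Co2 above mt-Atp6 in 32 and mt-Atp6 above mt-Atp8 in 32. mt-Cytb followed at 3310 ± 1378 TPM, and was below mt-Atp8 in 36 libraries.

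Among the complex I subunits, mt-Nd3 stood at 2533 ± 1205 TPM and mt-Nd1 at 2452 ± 1109, a pair that could not be ordered (mt-Nd3 was higher in 26 of 52 libraries). mt-Nd4l, at 1557 ± 877 TPM, and mt-Nd4, at 1387 ± 724, overlap by 7 bases on the same transcript. In TPM, mt-Nd4l was higher in 39 libraries. Its counts were 0.138 ± 0.0338 (SD, n = 52) of those of mt-Nd4, for lengths of 297 and 1378 bases. By counts per base mt-Nd4l was therefore lower. The median TPM per CPM was 6.51 for mt-Nd4l and 0.802 for mt-Nd4, a wider gap than that of the lengths. mt-Nd2 stood at 1342 ± 692 TPM. mt-Nd6, the single mRNA of the light strand, stood at 754 ± 419 TPM and was below mt-Nd2 in 50 of 52 libraries. mt-Nd5, at 476 ± 266 TPM, was below mt-Nd6 in all 52. The counts of mt-Nd6 were 0.243 to 1.12 of those of mt-Nd5, for lengths of 519 and 1824 bases. By counts per base the order therefore did not hold in every library. The median TPM per CPM was 2.67 for mt-Nd6 and 0.588 for mt-Nd5, again a wider gap than that of the lengths. The end of mt-Nd5 and the end of mt-Nd6 overlap by 14 bases on opposite strands, and the sources used here do not say whether the authors counted by strand. The ribosomal RNAs were lowest, with 272 ± 106 TPM for mt-Rnr1 and 215 ± 88.8 for mt-Rnr2.

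**Figure D2:**
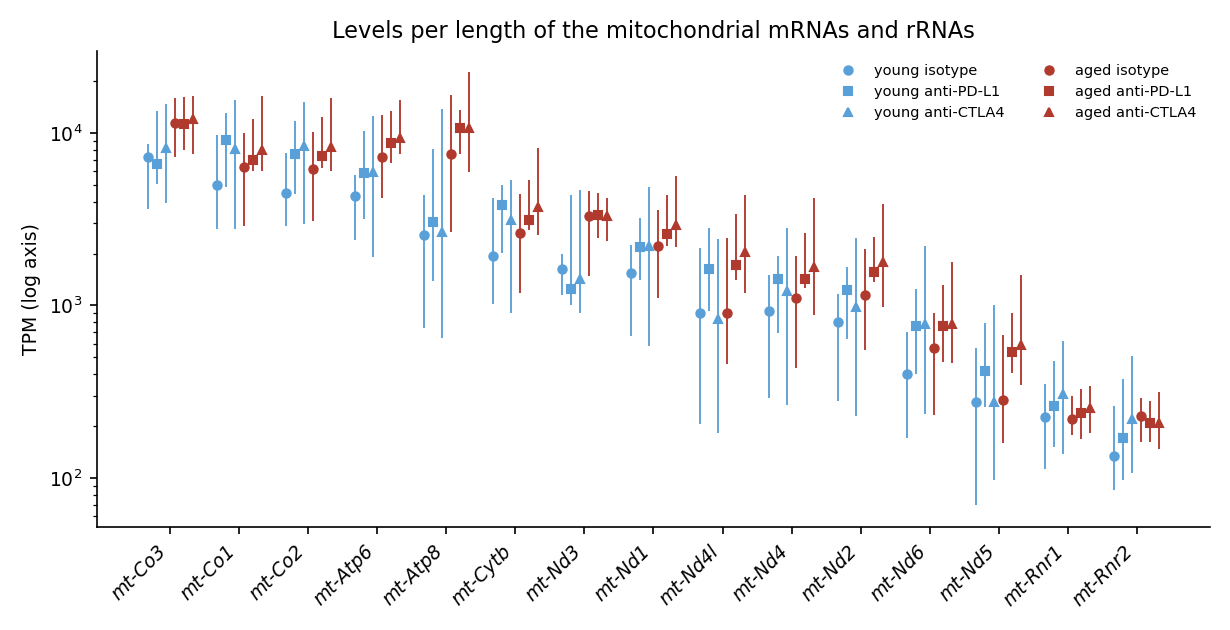
Levels per length (TPM, log axis) of the 13 mitochondrial mRNAs and 2 ribosomal RNAs, ordered by their mean, with a symbol at each group's median and a line from its lowest to its highest library; young groups are blue and aged groups red. The complex IV and ATP synthase genes lie at the left and the ribosomal RNAs at the right, and most group ranges overlap. Exceptions are aged anti-PD-L1 and aged anti-CTLA4, which lie above young isotype for mt-Atp6, mt-Atp8 and mt-Nd3, and aged anti-PD-L1 for mt-Nd2; these groups differ in age, antibody and batch at once.

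The tRNAs split by strand. All 8 light-strand tRNAs averaged more than 3 counts per library, and 7 were tested; of the 14 on the heavy strand 2 did so and were tested, mt-Tm and mt-Tl1. The 14 heavy-strand tRNAs summed to a mean of 32.9 counts per library, against 1064 for the 8 of the light strand. Most of the latter belonged to 2 genes, mt-Ts1 with a mean of 515 counts and mt-Tp, the proline tRNA, with 438. mt-Tc averaged 1.38 CPM and mt-Te, the glutamate tRNA, 1.05 CPM, and each other tRNA had a mean under 1 CPM over the 52 libraries. mt-Ts1 lies opposite the end of mt-Co1; in human cells the mature mRNA of the same gene runs on through the complement of this tRNA. Without strand, such reads cannot be told apart from the tRNA, which bears on each mt-Ts1 value below. For mt-Tl1, which is as long as a read, the deposited TPM were 967 times its CPM, against at most 17.0 times for the other tRNAs. Its TPM is not read as a level, but it enters the shares of TPM and the member counts by limma on TPM given below.

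The members rose and fell together from library to library. After removing group and batch means from log2 CPM, the 78 pairs of protein-coding genes had a median Pearson r of 0.83 and Spearman rho of 0.83 over 52 libraries, as a description, since all share library and scaling. mt-Nd1 followed the mean of the other 12 most closely (r = 0.99), and mt-Nd3 least (r = 0.60), with mt-Co3 next (r = 0.71). The 2 ribosomal RNAs followed each other (r = 0.97) more than they followed the mRNAs (median r = 0.58 over 26 pairs). Light-strand tRNAs followed mRNAs with a median r of 0.43 over 91 pairs.

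Nuclear genes of the same machinery followed them less closely, also as a description over the 52 libraries. Over 9 lists of such genes, r with the mean of the 13 mRNAs ran from -0.25 for the 4 complex II subunits to 0.15 for 13 genes of transcription and replication. The mean of 36 nuclear subunits of complex I had an r of 0.07 with the mean of the 13 mRNAs, and the mean of 40 mitochondrial ribosomal proteins an r of -0.01. The 5 nuclear genes nearest to the mRNAs by rho, among 10056 with a mean of at least 10 CPM, were the noncoding RNA Gm26905 (rho = 0.72), Pigm, a mannosyltransferase of membrane-anchor synthesis (0.71), Xist, the noncoding RNA that coats the inactive X chromosome (0.67), Bicd2, a dynein adaptor (0.64), and Ccnl1, a cyclin found with splicing factors (0.60).

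The first question of the design was what each antibody did in young mice. Against isotype, anti-PD-L1 moved no mitochondrial mRNA past the threshold (edgeR quasi-likelihood test, Benjamini-Hochberg adjusted p under 0.05 over 17899 genes), and lowered 1 of 24 tested members, mt-Tn. Over all genes 1.59% (285) were called in this comparison, and 18 genes without the 4 libraries of low scaling factor, with mt-Tn still among them (-2.62, adjusted p = 0.00376). mt-Tn, chosen for description after its values were seen because its mean lay under 1 CPM, stood at 0.167, 1.11 and 3.12 CPM (lowest, median and highest) in the 7 young isotype libraries and at 0.0473, 0.242 and 1.89 CPM in the 10 young anti-PD-L1 libraries. The groups overlap, and 9 of the 10 anti-PD-L1 libraries lie below the isotype median; the exception is the single one of batch 3. The fitted log2 fold change was -2.45 ± 0.44 (SE, adjusted p = 0.00229). Within batch 2 alone it was -2.50 (adjusted p = 0.0237, 9 against 7 libraries), and without young isotype replicate 5, the highest, it was -2.06 (adjusted p = 0.0194). Without a batch term the call was lost, at -1.66 (adjusted p = 0.0746). These values rest on few reads, since mt-Tn averaged 16.5 counts per library.

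The 3 tRNA genes beside mt-Tn had negative differences that did not pass. Under anti-PD-L1 the log2 fold change was -1.40 ± 0.60 for mt-Ta (adjusted p = 0.148), -1.12 ± 0.49 for mt-Tc (0.16) and -1.18 ± 0.46 for mt-Ty (0.118), all by the same edgeR fit. mt-Ts1 stood at 32.1, 44.1 and 85.8 CPM in young isotype against 15.2, 25.6 and 44.0 CPM in young anti-PD-L1, with all 10 treated libraries below the isotype median and a log2 fold change of -0.89 ± 0.28 (edgeR, adjusted p = 0.0814). DESeq2 called it at an adjusted p of 0.0445. The other well-covered tRNA, mt-Tp, differed by -0.08 ± 0.27 (adjusted p = 0.884).

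The mRNAs had a median log2 fold change of 0.11 under anti-PD-L1, beside 0.02 over all genes, with 9 of 13 positive and a range from -0.55 for mt-Nd3 to 0.40 for mt-Nd5. By limma on log2(TPM + 1) the median was 0.61, beside 0.26 over all genes. At an unadjusted p under 0.05, 1 of the 13 differed, beside 4339 of all 17899 genes. DESeq2 called 863 of all genes and none of the 13, its 2 members being tRNAs. mt-Co1, for example, stood at 10558 ± 4678 CPM (SD, n = 7) in young isotype and at 12047 ± 3726 CPM (n = 10) in young anti-PD-L1. Nuclear subunits of the same complexes lay on the negative side without passing: 34 of 36 for complex I (median -0.58) and 10 of 10 for complex IV (median -0.75), with 1 call, a lower Atp5g2, a subunit of the ATP synthase ring (-1.08 ± 0.20, edgeR adjusted p = 0.00297).

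Anti-CTLA4 in young mice gave 1 call as well, again mt-Tn, where 0.0726% of all genes were called. This comparison shares the young isotype libraries with the one above and is no second look at them. mt-Tn stood at 0.0726, 0.369 and 2.06 CPM in the 12 young anti-CTLA4 libraries, overlapping the isotype range, with 10 of 12 below the isotype median. The fitted log2 fold change was -3.20 ± 0.58 (edgeR, adjusted p = 0.0123). The call was lost without a batch term, where the difference was -1.05 (adjusted p = 0.168) and 3 other tRNAs were called lower instead, mt-Tl1 (-1.26, adjusted p = 0.037), mt-Tm (-1.41, 0.0198) and mt-Ts1 (-0.86, 0.04). The share of all genes called in that fit is not given here. The mt-Tn call was also lost with the replicate number as a block, where the difference was -3.03 (adjusted p = 0.0624). Within batch 2, 3 libraries at 0.0726, 0.198 and 0.214 CPM faced the 7 isotype libraries, and the difference was -2.95 (adjusted p = 0.507). In batch 3 the young anti-CTLA4 libraries stood at 0.427 to 2.06 CPM and in batch 1 at 0.172 to 0.408 CPM.

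All 24 tested members had negative log2 fold changes under anti-CTLA4 in young mice, from -3.20 to -0.01, and the 13 mRNAs had a median of -0.48, beside -0.04 over all genes. No mRNA passed, and 3 of 13 had an unadjusted p under 0.05, beside 1247 of all 17899 genes. DESeq2 called 51 of all genes and none of the 13 mRNAs. The direction rested on the batch term, since without it the median of the 13 was 0.21. Within batch 2 it was -0.61. The neighbours of mt-Tn had the next largest differences, mt-Tc with -2.92 ± 0.73 (edgeR adjusted p = 0.112) and mt-Ty with -2.54 ± 0.66 (0.136), both called by DESeq2 (adjusted p = 0.0163 and 0.0292), then mt-Ta with -2.38 ± 0.79 (0.378). Directly compared in young mice, anti-CTLA4 and anti-PD-L1 gave no call among members or among all genes (0%; 1242 genes at an unadjusted p under 0.05, 13 called by DESeq2), with a median of -0.58 over the 13 mRNAs that was 0.02 without the batch term.

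**Figure D3:**
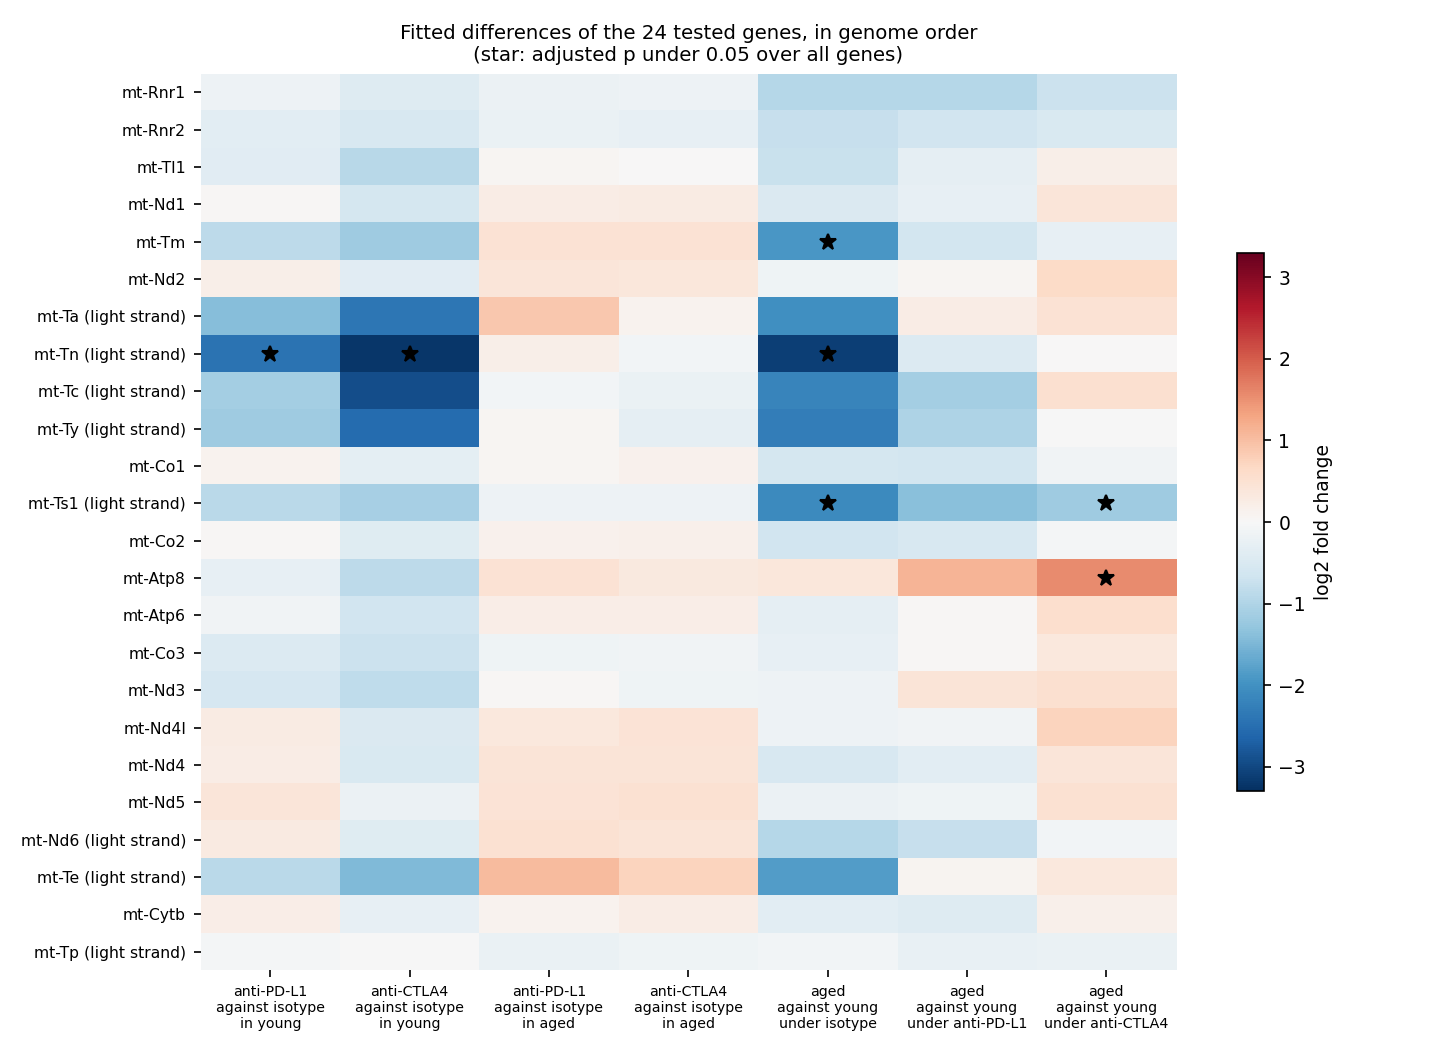
Fitted log2 fold changes (colour) of the 24 tested members in genome order, for the 4 comparisons of an antibody with isotype and the 3 of aged with young mice; stars mark an adjusted p under 0.05 over all genes. Light-strand tRNAs from mt-Ta to mt-Ty are the darkest cells in the young antibody comparisons, mt-Tn is the darkest under isotype by age, and mt-Atp8 is the starred mRNA.

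In aged mice neither antibody moved a member past the threshold, and neither moved any gene in the edgeR fit. For anti-PD-L1, 0% of genes were called, 5379 had an unadjusted p under 0.05 and DESeq2 called 2378; 1 of the 24 members had an unadjusted p under 0.05, and DESeq2 called none. For anti-CTLA4, 0% were called, 5321 had an unadjusted p under 0.05 and DESeq2 called 1912; no member had an unadjusted p under 0.05 or was called by DESeq2. The 13 mRNAs had medians of 0.25 under anti-PD-L1 and 0.28 under anti-CTLA4, with highest values of 0.49 for mt-Nd6 and 0.51 for mt-Nd5. Within batch 1 both medians turned negative, to -0.09 and -0.08. By limma on log2(TPM + 1) they were larger, 0.84 and 0.93, beside medians of all genes of 0.27 and 0.30. mt-Tn stood at 0.358, 0.744 and 1.06 CPM in aged isotype, 0.290, 0.651 and 1.07 CPM in aged anti-PD-L1 and 0.313, 0.509 and 0.942 CPM in aged anti-CTLA4, with differences from isotype of 0.19 ± 0.47 (adjusted p = 0.814) and -0.08 ± 0.46 (0.921).

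Whether an antibody effect differed between ages was tested as an interaction. For mt-Tn the effect in aged minus that in young mice was 2.64 ± 0.66 under anti-PD-L1 (edgeR, p = 0.000206, adjusted p = 0.268) and 3.12 ± 0.74 under anti-CTLA4 (p = 0.000102, adjusted p = 0.278), and neither passed. DESeq2 called the former at an adjusted p of 0.0496. No gene passed either interaction in edgeR (0% in both; 656 and 1257 genes at an unadjusted p under 0.05), and DESeq2 called 31 and 18. For anti-CTLA4 all 13 mRNAs had positive interaction values, with a median of 0.77 and the lowest adjusted p at 0.634, and without the batch term the median was -0.11. Directly compared in aged mice, the antibodies gave no call (0%; 243 genes at an unadjusted p under 0.05, 18 by DESeq2, no member in either), with a median of 0.03 over the 13 mRNAs.

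The second question of the design was age. Under anti-CTLA4, the one antibody whose young and aged libraries share batches, 2 of 24 members differed, mt-Atp8 higher and mt-Ts1 lower in aged mice, where 30.6% of all genes were called. mt-Atp8, a small subunit of the ATP synthase membrane part, stood at 76.8, 210 and 862 CPM in young and at 450, 638 and 1167 CPM in aged anti-CTLA4 libraries. The groups overlap through batch 3, and all 8 aged libraries lie above the young median. The log2 fold change was 1.55 ± 0.35 (edgeR, adjusted p = 0.000847). In batch 1 the 4 young libraries ran from 92.3 to 237 CPM and the 7 aged libraries from 450 to 886 CPM without overlap, and the difference was 2.24 (adjusted p = 0.000237).

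Under isotype mt-Atp8 stood at 126, 251 and 388 CPM in young and at 220, 653 and 1263 CPM in aged libraries, and under anti-PD-L1 at 98.0, 191 and 700 CPM in young and at 465, 758 and 973 CPM in aged libraries. The aged values were mostly the higher ones, with 6 of 7 and 8 of 8 above the young median. With the batch term neither difference passed, at 0.38 ± 0.50 (edgeR, adjusted p = 0.683) and 1.12 ± 0.50 (0.18); without it both did, at 1.63 (0.00676) and 1.60 (0.00316). As age and batch coincide in these comparisons, they cannot be told apart without the other groups.

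mt-Ts1 stood at 13.5, 24.6 and 53.3 CPM in young and at 5.34, 12.7 and 22.1 CPM in aged anti-CTLA4 libraries. All 8 aged libraries lie below the young median, and the ranges overlap. The log2 fold change was -1.17 ± 0.29 (edgeR, adjusted p = 0.00208). In batch 1 the young libraries ran from 19.3 to 53.3 CPM and the aged from 5.34 to 16.5 CPM, without overlap, and the difference was -1.55 (adjusted p = 0.00165). Under isotype mt-Ts1 was also lower in aged mice, at 7.94, 11.5 and 33.9 CPM against 32.1, 44.1 and 85.8 CPM, with a log2 fold change of -2.09 ± 0.47 (adjusted p = 0.00496). The single aged library that reaches the young range is replicate 3, of batch 3 and a low scaling factor, and without it the difference was -2.41 (adjusted p = 0.00093). Under anti-PD-L1 the values were 6.59, 13.1 and 20.8 CPM in aged against 15.2, 25.6 and 44.0 CPM in young libraries, with a log2 fold change of -1.38 ± 0.45 that missed the threshold in edgeR (adjusted p = 0.0609) and passed in DESeq2 (0.0292). These 2 comparisons have no batch in common.

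Both genes were set against the neighbour with which they share bases. The ratio of mt-Atp8 to mt-Atp6 counts was 0.0785 ± 0.0304 (SD, n = 7) in young isotype, 0.0701 ± 0.0141 (n = 10) in young anti-PD-L1 and 0.0783 ± 0.0371 (n = 12) in young anti-CTLA4. In the aged groups it was 0.149 ± 0.0382 (n = 7), 0.157 ± 0.0183 (n = 8) and 0.148 ± 0.0336 (n = 8) in the same order. In batch 1 of anti-CTLA4 it ran from 0.0405 to 0.0659 in young and from 0.107 to 0.180 in aged libraries. In batch 3, however, the 5 young anti-CTLA4 libraries ran from 0.0534 to 0.147 and reached the range of the 4 aged isotype libraries, 0.125 to 0.195. mt-Atp6 itself had a log2 fold change of 0.55 ± 0.26 by age under anti-CTLA4 (adjusted p = 0.109).

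The ratio of mt-Ts1 to mt-Co1 counts went the other way. It was 0.00554 ± 0.00206 (n = 7), 0.00239 ± 0.000563 (n = 10) and 0.00253 ± 0.00114 (n = 12) in young isotype, anti-PD-L1 and anti-CTLA4, and 0.00139 ± 0.000242 (n = 7), 0.00117 ± 0.000239 (n = 8) and 0.00110 ± 0.000205 (n = 8) in the aged groups. The isotype groups, which share no batch, did not overlap, with a lowest young value of 0.00251 and a highest aged value of 0.00162. In batch 1 of anti-CTLA4 the ratio ran from 0.00153 to 0.00507 in young and from 0.000906 to 0.00147 in aged libraries. In batch 3, however, the 5 young anti-CTLA4 libraries, at 0.00121 to 0.00282, overlapped the 4 aged isotype libraries, at 0.00142 to 0.00162. mt-Co1 differed by age by -0.57 ± 0.44 under isotype (adjusted p = 0.44) and by -0.11 ± 0.29 under anti-CTLA4 (0.792).

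**Figure D4:**
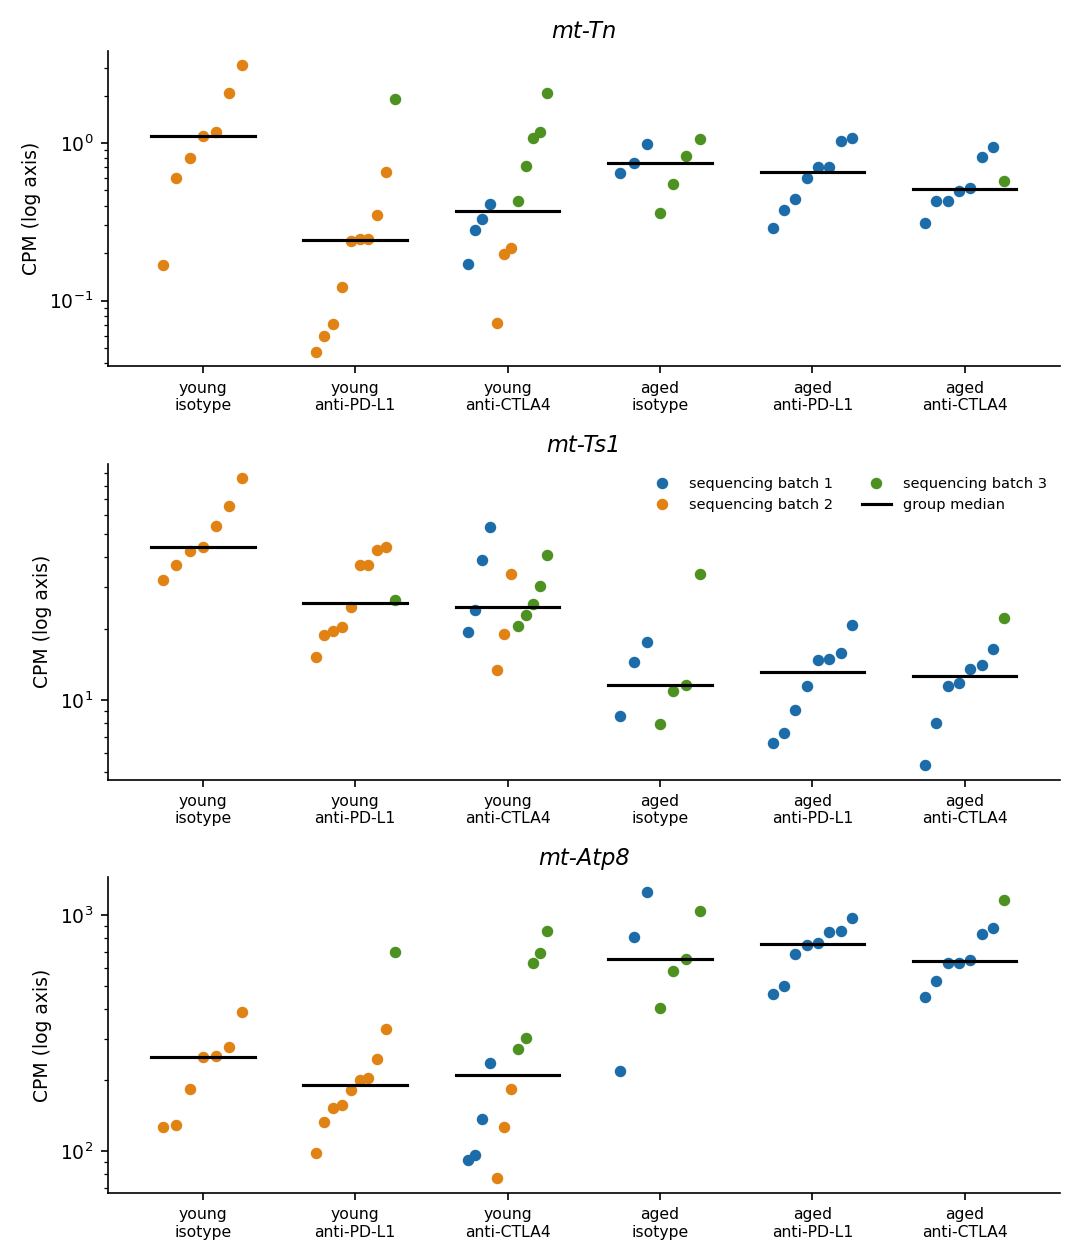
Levels (CPM, log axes) of mt-Tn, mt-Ts1 and mt-Atp8 in each library, by group, coloured by sequencing batch, with lines at group medians. mt-Tn is low in batch 2 of young anti-PD-L1 and anti-CTLA4 beside batch 2 of young isotype, mt-Ts1 is lower in the aged groups, and mt-Atp8 is higher in the aged groups and in batch 3 of the young ones.

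**Figure D5:**
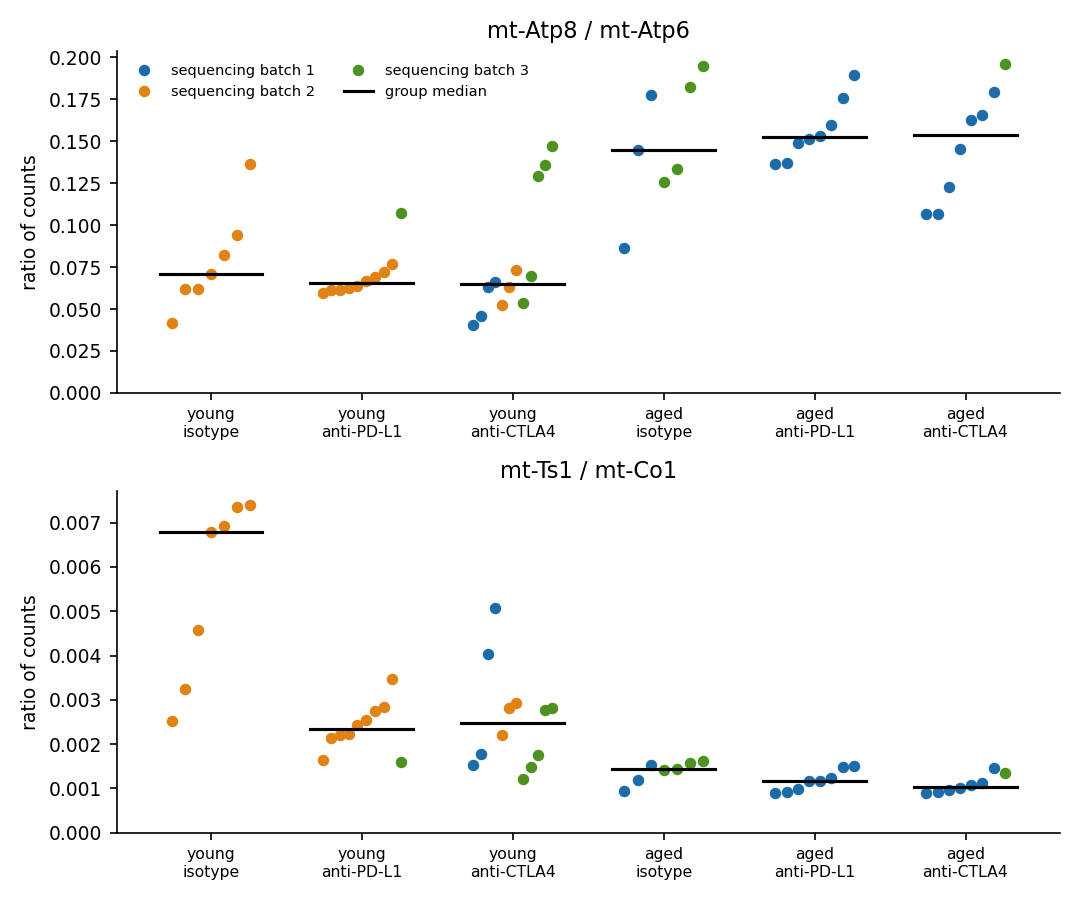
Ratios of counts of mt-Atp8 to mt-Atp6 and of mt-Ts1 to mt-Co1 in each library, by group, coloured by sequencing batch, with lines at group medians. The first ratio has aged means of 0.148 to 0.157 beside young means of 0.0701 to 0.0785, and the second is highest in young isotype.

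Short genes can also move with how fragments were sized or retained, and a length trend was measured in each library. It is the slope of log2 CPM, relative to the mean of all libraries, on the log2 of the length implied by counts and TPM. The 17761 genes used leave out the members, the listed nuclear-encoded respiratory subunits and the mitochondrial ribosomal proteins. It averaged -0.14 ± 0.18 (SD) in young isotype, 0.02 ± 0.14 in young anti-PD-L1, -0.05 ± 0.15 in young anti-CTLA4, -0.07 ± 0.11 in aged isotype, 0.12 ± 0.07 in aged anti-PD-L1 and 0.12 ± 0.09 in aged anti-CTLA4. After removing group and batch means, it had an r of 0.42 with the log2 ratio of mt-Atp8 to mt-Atp6 and of -0.33 with log2 CPM of mt-Ts1 over 52 libraries. The 113 tested nuclear genes under 200 bases had negative medians in the same comparisons. By age the median log2 fold change was -0.61 under anti-CTLA4, with 21 called lower and 7 higher, a share below the 30.6% of all genes, and -0.62 under isotype, with 3 lower and 1 higher beside 8.41% of all genes. In young mice it was -0.44 under anti-PD-L1, with 8 lower and 0 higher beside 1.59% of all genes, and -0.66 under anti-CTLA4, with 0 called beside 0.0726%. Their part in the results for mt-Tn, mt-Ts1 and mt-Atp8 was not tested.

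Under isotype, 3 of 24 members were called by age, all lower in aged mice, where 8.41% of all genes were called. Beside mt-Ts1 these were mt-Tn (-3.10 ± 0.70, edgeR adjusted p = 0.00502) and mt-Tm, the methionine tRNA (-1.92 ± 0.62, adjusted p = 0.0424), both named after their values were seen. For mt-Tn the size of the difference came from the batch term: the means were 1.29 ± 0.996 CPM in young and 0.739 ± 0.246 CPM in aged libraries, and without that term the difference was -0.81 (adjusted p = 0.341). Its neighbours mt-Ta, mt-Tc and mt-Ty also had negative fitted differences. Yet 6, 7 and 5 of the 7 aged libraries lay above the young median for these genes. mt-Tm stood at 0.449, 1.21 and 2.19 CPM in young and at 0.0796, 0.171 and 0.598 CPM in aged libraries, with all 7 aged ones below the young median. Its call was lost without young isotype replicate 2 (-1.74, adjusted p = 0.0774), without replicate 5 (-1.94, 0.0538) and without aged isotype replicate 7 (-1.76, 0.0647). Under anti-PD-L1, no member was called by age where 5.04% of all genes were. An unadjusted p under 0.05 was found for 3 members, beside 3779 of all 17899 genes. DESeq2 called 1 member, mt-Ts1, beside 1532 of all genes.

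The other mRNAs did not pass by age in the fit over all libraries. Their direction was not stable between batch settings: under isotype the median of the 13 was -0.30 with a batch term and 0.31 without, and under anti-PD-L1 it was -0.15 and 0.28. Under anti-CTLA4 it was 0.40 with and 0.41 without the term, beside -0.06 over all genes, and 0.55 within batch 1. There mt-Atp6 (0.92, adjusted p = 0.0191) and mt-Nd3 (0.92, adjusted p = 0.02) passed as well, with mt-Tc (1.78, 0.0155), and mt-Rnr1 was lower (-0.70, 0.0483). The share of all genes called within batch 1 is not given here, so these calls are not set against a background. Over all libraries 30.6% of all genes were called in this comparison. In the fit over all libraries mt-Rnr1 differed by -0.70 ± 0.31 (edgeR adjusted p = 0.0745) and mt-Nd3 by 0.52 ± 0.27 (0.138).

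Nuclear-encoded subunits of the same complexes lay on the other side of 0 by age under anti-CTLA4. Of 36 tested complex I subunits, 16 were lower and 1 higher in aged mice (median -0.54), among them Ndufa3 (-1.24 ± 0.24, edgeR adjusted p = 0.000172), Ndufa2 (-1.16 ± 0.29, 0.00179) and the iron-sulphur subunit Ndufs7 (-0.57 ± 0.14, 0.00193). For complex III, 2 of 9 were lower, Uqcrq (-1.17 ± 0.31, 0.0033) and Uqcr10 (-0.76 ± 0.30, 0.044). For complex IV, 3 of 10 were lower (Cox5b, -0.70 ± 0.22, 0.0111), and for the ATP synthase 4 of 15 (Atp5e, -1.21 ± 0.39, 0.0142), with none higher in these 3 lists. None of the 4 subunits of complex II, which has no mitochondrially encoded part, passed. With 30.6% of all genes called in this comparison, the shares of complexes III, IV and V lie near or below the background. The part of the length trend was not tested.

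Genes that act on mitochondrial DNA and RNA were called by age under anti-CTLA4 at shares near or below the 30.6% of all genes, in both directions. Of 13 genes of transcription and replication, 2 were higher and 2 lower: Tfb2m, the factor that opens the promoter (0.83 ± 0.12, edgeR adjusted p = 3e-06), and the helicase Twnk (0.32 ± 0.11, 0.0176) were higher, while the RNA polymerase Polrmt (-0.51 ± 0.19, 0.0312) and the DNA polymerase Polg (-0.57 ± 0.16, 0.0066) were lower. Of 20 genes of RNA processing, polyadenylation and decay, 5 were higher and 1 lower, with the nuclease Pnpt1 (0.57 ± 0.11, 9.5e-05), the RNA-binding protein Grsf1 (0.47 ± 0.10, 0.000365) and the poly(A) polymerase Mtpap (0.44 ± 0.10, 0.001) among the former and the kinase family member Fastk (-0.55 ± 0.11, 0.000297) the latter. Of 40 mitochondrial ribosomal proteins, 2 were higher and 7 lower.

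Some nuclear pseudogenes are near copies of mitochondrial genes, and reads can be split between them. All 9 such pseudogenes on the list were tested, 7 on chromosome 1 and 2 on chromosome 2, and 5 of them matched a mitochondrial gene at 100% identity over their whole transcript. Their counts were 0.0282 to 0.615% of those of the gene they match, and how reads were divided between such copies is uncertain. By age under anti-CTLA4, where 30.6% of all genes were called, 5 of the 9 were lower, by -1.77 ± 0.49 for Gm29216, a copy of part of mt-Co1 (edgeR adjusted p = 0.00478), while mt-Co1 itself differed by -0.11. Summed over the 9, the median was 13.2 CPM in batch 1, 18.1 in batch 2 and 116 in batch 3 (39.3 to 326). The part of batch in these age differences was not tested. After removing group and batch means, the mean of the 9 had an r of 0.75 with the mean of the 13 mRNAs.

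Cell type markers moved with the groups too. By age under anti-CTLA4, all 8 neutrophil markers were lower in aged mice (median log2 fold change -3.28), 4 of 5 red blood cell markers were lower (-1.67) and 5 of 6 epithelial markers were higher (0.98), where 30.6% of all genes were called. Of 8 macrophage markers 2 were called lower, below that share (-0.39). The 5 red blood cell markers summed to a median of 787 CPM in young isotype (287 to 1529) and 256 CPM in aged isotype (222 to 453), and to 606 CPM in young anti-CTLA4 (101 to 1879) and 243 CPM in aged anti-CTLA4 (62.4 to 321). The 8 macrophage markers summed to a median of 7863 CPM in young (5024 to 9619) and 5401 CPM in aged anti-CTLA4 (3414 to 7756), with none at 0. The 11 markers of skeletal muscle, a tissue rich in mitochondria, summed to a median of 9.53 CPM in young (6.20 to 31.8) and 22.6 CPM in aged anti-CTLA4 (14.0 to 33.7), and to 14.4 CPM in young (10.1 to 27.6) and 30.0 CPM in aged isotype (14.5 to 89.7). Under anti-PD-L1 they summed to 10.4 CPM in young (4.21 to 21.3) and 20.7 CPM in aged mice (10.2 to 39.1). Of 6 tested, 2 were called higher by age under anti-CTLA4, beside 30.6% of all genes (median log2 fold change 0.38, 3 positive and 3 negative). Under isotype 1 was called higher, beside 8.41% (0.92, 5 positive and 1 negative). Under anti-PD-L1 1 was called higher, beside 5.04% (1.30, 6 positive). Myh4 was at 0 in all young isotype and all young anti-CTLA4 libraries. The 11 adipocyte markers summed to 25.5 to 990 CPM, the 8 neutrophil markers to 52.1 to 3753 CPM and the 9 B cell markers to 5.32 to 1705 CPM. Their part in the results for the members was not tested.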

How the data were processed

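The authors deposited estimated counts per gene and TPM values for the 52 libraries, whose processing notes by the submitters list the tools Salmon and DESeq2 (version 1.16.1) and build mm10. The deposited counts are whole numbers in proportion to TPM times a length common to all libraries (largest log2 deviation 0.00152 over 2644 genes). GENCODE vM21 gave a symbol for 47224 of the 47729 identifiers.

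Counts were tested with edgeR 4.0.16 (R 4.3.3): filterByExpr (17899 genes), TMM, 1 fit with group and batch terms, quasi-likelihood F tests, adjusted p under 0.05, 11 comparisons. CPM are TMM-normalized. Alternatives used DESeq2 1.42.0 and limma 3.58.1 on log2(TPM + 1) and log2(TPM + 0.1). The pipeline was tested on simulated data. Pseudogenes were aligned with blastn. Replicate numbers were not used to pair libraries in the main fit, and no 2 libraries of the same group were copies (209 pairs). The members and lists were chosen with earlier results of these data known. Named were all mRNAs, rRNAs and tRNAs of at least 1 CPM, at most 4 genes per list and 5 nuclear neighbours. P-values measure the spread between tumours.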

Additional observations from a re-analysis of the deposited data

Results flagged for a closer look

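Of 100 sets of a gene or share and a group of 7 to 10 libraries, 1 held a library far from the rest by Dixon's test, where chance gives about 1 in 20. It was mt-Rnr1 in aged isotype replicate 3, with a log2 CPM of 8.86 beside 7.79 in the nearest library of its group. This library is of batch 3 and has a TMM factor of 0.71.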

How the results depend on the processing

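Counts of called members moved as follows. DESeq2 called 2 under anti-PD-L1 and 3 under anti-CTLA4 in young mice, where it called 863 and 51 of all genes. By age it called 6 under isotype and 1 under anti-PD-L1, beside 2203 and 1532 of all genes. In the anti-PD-L1 interaction it called 1, beside 31 of all genes. Without a batch term the counts were 0 and 3 for the young antibody comparisons and 2 by age under anti-PD-L1. Fits of only the groups compared gave 0 under anti-CTLA4 in young mice and 5, 2 and 7 by age under isotype, anti-PD-L1 and anti-CTLA4; where the groups share no batch, these fits have no batch term. Anti-CTLA4 in young mice gave 0 with the replicate block, 0 in batch 2 and 0 by limma on log2(TPM + 0.1). By age under anti-CTLA4, batch 1 gave 6 and limma on TPM 8 with either pseudocount. With a pseudocount of 1, limma called 5304 of all genes there. No share of all genes is given here for the fits without a batch term, of only the groups compared or with the replicate block. The same holds for fits within a batch and with the lower pseudocount, so these counts are not set against a background. Medians of the 13 mRNAs without a batch term were 0.2064 for anti-CTLA4 against isotype, 0.0198 against anti-PD-L1 in young mice, and -0.1077 for the interaction. On TPM, anti-CTLA4 in aged mice gave 0.9323 (0.9327 with the lower pseudocount), where the median of all genes was 0.304 (0.479). The mean share of TPM was 7.29% in aged anti-CTLA4, 5.40% in aged isotype, 6.60% in aged anti-PD-L1 and 4.89% in young anti-PD-L1. The cause was not tested. RLE factors, library sizes without the members and no filter left these counts and medians on the same side, except for mt-Tm, which lost its call without a filter (adjusted p = 0.091). Leaving out an extreme library was chosen after seeing the data; it gave 2 to 3 members by age under isotype, with mt-Tn and mt-Ts1 called each time. Deviations of same-numbered libraries from their group means had correlations from -0.543 to 0.513, and these were not set against differently numbered libraries. Whether the replicate number marks a shared deviation was not tested, nor was the reason for the block result. Depth limits the tRNAs: 13 were too low to test.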
